A study of Mus musculus with 6 samples.

Results

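The genes described here, apart from Krt74, listed as a pseudogene in the mouse, encode the keratins of the inner root sheath and the trichohyalin proteins that fill the same cells. They are the type I keratins Krt25, Krt26, Krt27 and Krt28, the type II keratins Krt71, Krt72, Krt73 and Krt74, trichohyalin (Tchh) and trichohyalin-like 1 (Tchhl1). They were chosen by symbol, through the transcript identifier printed for each array probe, and all 10 had a probe. They are 10 of 37000 genes and unnamed transcripts with a probe. The skins compared were KO skins, from mice in which Sox4 was deleted conditionally in the skin, aged 17, 18 and 16 weeks in replicates 1, 2 and 3, and WT skins, from wild-type mice aged 20, 19 and 18 weeks. All were untreated males of a mixed C57Bl6/129Sv background. They were described as sampled while the hair follicles rested (telogen), to ask what the transcription factor Sox4 contributes to resting skin. The hair cycle stage of each single skin was not tested here. Which promoter or Cre line drove the Sox4 deletion is not stated in these sources.

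The inner root sheath is the tube of epithelium that surrounds and shapes the growing hair shaft, and it is lost as the follicle regresses. Its cells pair a type I with a type II keratin into filaments, and trichohyalin granules are then deiminated and crosslinked to those filaments so that the sheath hardens. Sheath keratins and trichohyalin are therefore classical markers of follicles in the growth phase (anagen), and mouse mutations in Krt71 (Caracul) and Krt25 (Rex) give wavy coats.

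Each skin was hybridised to a 1-colour array, and between 52.1% and 66.4% of probes were well above background. The 75th percentile of the signal, which was used for scaling, ran between 493.3 and 605 units in KO and between 379.8 and 487 units in WT. Signals below are the processed intensities in scanner units, and differences between groups are log2 values after scaling to the 75th percentile. The brighter Sox4 probe read 78.7, 69.0 and 59.5 units in KO replicates 1, 2 and 3, against 504, 764 and 735 units in WT replicates 1, 2 and 3 (limma log2 fold change −3.56, SE 0.13, adjusted p = 0.00135). Whether this probe lies in the deleted part was not tested. All 6 epidermal and all 6 dermal fibroblast markers were well above background. KO replicate 3 stood apart from the other KO skins in the sheath genes and not in Sox4, so results are given with and without it.

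The genes lie in 3 runs, and the windows around their starts, 250 bases before and 50 after, were searched for short motifs. The sequences are from RefSeq, build GRCm38.p6, and 9 of the 10 genes matched; the array itself was designed on another build. Shown are Krt25 and Krt71, the genes of the wavy-coat mutants named above, and the adjacent pair Krt72 and Krt73, which differed in behaviour. All 4 are read from the minus strand, at chr11:99322902-99323201 for Krt25, chr15:101743048-101743347 for Krt71, chr15:101786471-101786770 for Krt72 and chr15:101802311-101802610 for Krt73. Capitals mark AGATAA, the core of the GATA factor motif, CAATTA, a homeodomain core, ACAAAG, a core shared by SOX and TCF/LEF factors, and TATAAA, the TATA box.
Krt25: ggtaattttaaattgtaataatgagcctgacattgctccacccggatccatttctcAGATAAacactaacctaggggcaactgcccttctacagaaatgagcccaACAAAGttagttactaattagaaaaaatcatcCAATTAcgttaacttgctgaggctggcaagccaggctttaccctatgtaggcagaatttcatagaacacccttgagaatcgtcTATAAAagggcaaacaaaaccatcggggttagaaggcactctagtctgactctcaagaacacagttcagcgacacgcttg
Krt71: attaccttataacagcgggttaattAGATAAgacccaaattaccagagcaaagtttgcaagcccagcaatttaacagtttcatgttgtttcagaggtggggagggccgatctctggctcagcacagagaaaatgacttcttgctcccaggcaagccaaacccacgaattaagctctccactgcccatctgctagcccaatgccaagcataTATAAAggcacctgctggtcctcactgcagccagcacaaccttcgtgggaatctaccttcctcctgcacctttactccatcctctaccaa
Krt72: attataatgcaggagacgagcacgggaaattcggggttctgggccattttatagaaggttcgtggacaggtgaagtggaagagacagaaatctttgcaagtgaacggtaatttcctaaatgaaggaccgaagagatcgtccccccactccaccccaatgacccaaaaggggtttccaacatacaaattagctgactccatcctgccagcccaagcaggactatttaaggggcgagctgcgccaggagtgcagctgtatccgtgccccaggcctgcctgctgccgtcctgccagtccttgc
Krt73: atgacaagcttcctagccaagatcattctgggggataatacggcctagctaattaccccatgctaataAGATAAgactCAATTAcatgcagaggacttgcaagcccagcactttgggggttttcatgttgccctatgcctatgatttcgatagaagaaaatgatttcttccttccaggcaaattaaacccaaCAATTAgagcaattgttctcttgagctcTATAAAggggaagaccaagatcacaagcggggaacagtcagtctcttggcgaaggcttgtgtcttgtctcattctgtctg

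AGATAA, searched on both strands, was found in 5 of 9 windows (Krt25, Krt27, Krt71, Krt73 and Tchh), against 11.4% of 27025 gene starts of the same length. CAATTA, on both strands, was found in 5 of 9 (Krt25, Krt26, Krt28, Krt73 and Tchhl1), against 8.15% of all starts. TATAAA on the coding strand was found in 6 of 9 (Krt25, Krt26, Krt27, Krt28, Krt71 and Krt73), against 8.88%, and ACAAAG on both strands in Krt25 alone, against 18.7%. The Krt72 window held none of the 4 sets of letters. The letters were picked with these windows in view, and no 2 matches overlapped within the windows shown. They describe the windows and no binding.

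Krt25, Krt26, Krt27 and Krt28 are type I keratins, and Krt27, Krt28 and Krt25 are made throughout the layers of the sheath. The Krt25 probe read 14051, 10108 and 5.65 units in KO replicates 1, 2 and 3, against 4.49, 5.47 and 4.45 units in WT replicates 1, 2 and 3. It was well above background in KO replicates 1 and 2 and in no other skin, so WT has only a bound. The KO mean over its 3 arrays, of which 2 measured the gene, lay 94.2-fold above that bound. The reading of KO replicate 3 enters this mean though it was not well above background. The fold is therefore no strict minimum and describes no single skin. Such folds set the KO mean of scaled log2 values against the higher, per WT array, of the probe's own value and the dimmest signal that counted as well above background on that array.

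Krt26, a keratin of the sheath cuticle, read 592, 261 and 15.7 units in KO, against 4.31, 5.30 and 7.83 units in WT. Again only KO replicates 1 and 2 were well above background. The KO mean, which includes the reading of replicate 3, lay 13.0-fold above the WT bound and is likewise no strict minimum. This was the sole member whose KO and WT values did not overlap, and the KO value next to WT, that of replicate 3, was not well above background. Krt25 and Krt26 did not pass the detection filter of the main fit, which asks for signal on every array of a group.

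Krt27 read 20793, 9961 and 30.5 units in KO, against 32.3, 46.7 and 35.6 units in WT, and was well above background on every array. KO replicates 1 and 2 lay 394-fold and 225-fold above the WT mean after scaling, while KO replicate 3 lay at 0.710 of it and below each WT skin. The log2 fold change over all skins was 5.31 (SE 2.29, limma adjusted p = 0.437), and the SD was 5.05 in KO and 0.12 in WT (n = 3 each).

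Krt28 has 2 probes, and they ordered the skins alike in separating KO replicates 1 and 2 from the rest. The brighter read 6259, 3226 and 356 units in KO, against 199, 374 and 378 units in WT. The dimmer read 2091, 1065 and 45.8 units in KO, against 26.7, 51.0 and 46.8 units in WT. KO replicate 3 lay within the WT values on both. The log2 fold change of the brighter was 2.36 (SE 0.95, limma adjusted p = 0.417) and that of the dimmer 3.25.

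Krt71, the type II keratin found in all layers of the sheath, read 90509.6, 53809 and 103 units in KO, against 72.5, 214 and 145 units in WT. KO replicates 1 and 2 were 493-fold and 349-fold above the WT mean, and KO replicate 3, at 0.686 of it, fell within the WT values. The log2 fold change was 5.62 (SE 2.44, limma adjusted p = 0.437).

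Krt73, a type II keratin of the sheath cuticle, read 5347, 4371 and 449 units in KO, against 386, 511 and 427 units in WT. After scaling, the WT skins lay within 0.10 log2 of each other, the narrowest WT range among the members. KO replicates 1 and 2 were 8.71-fold and 8.49-fold above the WT mean, and KO replicate 3 was at 0.899 of it, below every WT skin by a small margin. The log2 fold change was 2.02 (SE 0.86, limma adjusted p = 0.434).

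Krt72, the cuticle keratin whose gene lies next to Krt73, did not separate these skins. Its probe read 5366, 3231 and 2991 units in KO, against 2619, 4565 and 3327 units in WT. The scaled means were 2.81 ± 0.30 in KO and 2.98 ± 0.23 in WT (log2 relative to the 75th percentile, SD, n = 3 each), a log2 fold change of −0.18 (SE 0.20, limma adjusted p = 0.695). KO replicate 1 lay inside the WT values and KO replicates 2 and 3 below them. Which transcripts the probe detects besides Krt72 was not tested.

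Krt74, which the RefSeq table lists as a transcribed pseudogene in the mouse, was well above background in KO replicate 3 alone. Its probe read 2.81, 12.6 and 31.5 units in KO, against 8.34, 4.95 and 4.09 units in WT. No fold or direction is read for Krt74, because 5 of 6 values were not well above background.

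Trichohyalin, the granule protein of the sheath and medulla, read 36035, 16234 and 392.5 units in KO, against 342, 585 and 381 units in WT. KO replicates 1 and 2 were 60.7-fold and 32.6-fold above the WT mean, and KO replicate 3 was at 0.811 of it and below the WT skins. The log2 fold change was 3.55 (SE 1.53, limma adjusted p = 0.437).

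Tchhl1, a related S100 fused-type protein whose gene is adjacent to Tchh, read 9404, 4516 and 509 units in KO, against 124, 855 and 157 units in WT. WT replicate 2 was the high WT skin, and the WT values spanned 5.39-fold after scaling, the widest WT range among the members. KO replicate 3 lay between WT replicate 2 and the other WT skins. The log2 fold change was 3.15 (SE 1.13, limma adjusted p = 0.377), the smallest adjusted p among the members.

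**Figure D1:**
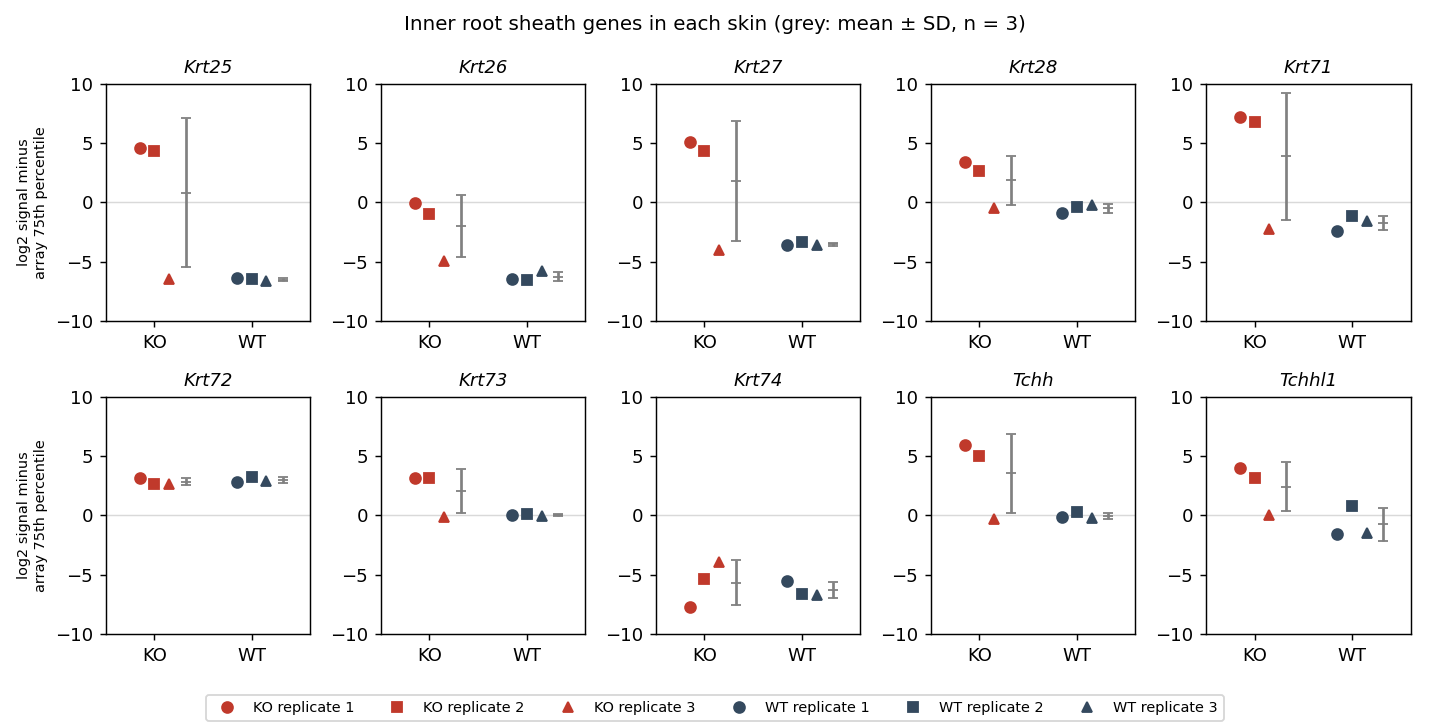
Scaled log2 signal of the 10 genes in each KO and WT skin, with the array's 75th percentile at 0; points are arrays and grey bars the mean ± SD of 3. In 8 genes KO replicates 1 and 2 sit above all WT skins while KO replicate 3 sits near them; Krt72 and Krt74 do not show this.

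No member passed the threshold: 0 of the 7 that passed the detection filter had a limma adjusted p under 0.05, against 0.0219% of all genes that passed it. An unadjusted p under 0.05 was found for 2 of the 7, against 11.8% of those genes. Of the 10 members, 8 were higher in KO by at least 1 log2, against 3.12% of all genes with a probe. The median log2 fold change of the 10 was 3.35, against −0.11 for all genes. Krt25 and Krt26, among the 8, and Krt74, in the median, were not well above background in any WT skin. Of the 7 members that passed the filter, 6 were higher by at least 1 log2. Their median was 3.15, against −0.09 for all genes that passed. KO and WT did not overlap in 1 of 10, against 14.2% of all genes. In 8 of 10 both KO replicates 1 and 2 exceeded every WT skin. KO replicate 3 lay within the WT values in 4 members, below them in 4 and above them in 2, and in these 2, Krt26 and Krt74, the WT skins were not well above background. By exact two-sided permutation no design of 3 against 3 can go below p = 0.1.

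Leaving out KO replicate 3 changed the calls. This skin was singled out by its low values in these same genes, so the calls without it restate that difference and are no separate evidence. With the other 5 skins, 5 of the 7 members that had passed the detection filter on all skins were called higher in KO, against 0.667% of all genes called in that fit. They were Krt27, Krt28, Krt71, Krt73 and Tchh, with log2 fold changes from 3.10 for Krt73 to 8.70 for Krt71 and limma adjusted p from 0.000273 for Krt27 to 0.0120 for Krt28. Tchhl1 was not called (4.32, limma adjusted p = 0.167), nor was Krt72 (−0.07, limma adjusted p = 0.879). Krt25 and Krt26 were called as well, but they passed the filter there solely through the KO skins in which they were high, and their WT signals were not well above background. KO and WT then did not overlap in 8 members, against 28.0% of all genes. Leaving out any of the other 5 skins gave 0 calls among the members.

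The skins were spread over 3 slides. On slide 1, KO replicate 3 minus WT replicate 1 had a median of 0.04 over the 10 members. On slide 2, KO replicate 1 minus the mean of WT replicates 2 and 3 had a median of 5.08. KO replicate 2 was alone on slide 3. With slide as a block the median was 3.22 and no member was called. KO mice were younger, and with age as a covariate the median was 5.29, again with 0 calls. Only the age of 18 weeks occurred in both groups, so this fit can hardly separate age from genotype. Among KO mice the high skins were those aged 17 and 18 weeks and the other was aged 16 weeks. In these whole-skin samples, more sheath cells and more RNA per sheath cell cannot be told apart.

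The spread among KO skins was shared by most members. The SD over the 3 KO arrays reached 2 log2 in 7 of 10 members, against 0.900% of all genes with a probe. It ran from 0.30 for Krt72 to 6.28 for Krt25, which was not well above background in KO replicate 3. Within WT no member reached an SD of 2 log2, against 0.781% of all genes, and the highest was 1.36 for Tchhl1. Across the 6 arrays, Krt25, Krt26, Krt27, Krt28, Krt71, Krt73, Tchh and Tchhl1 followed the mean of the detected members with Pearson r from 0.945 to 0.998, while Krt72 had r = 0.16 and Krt74 r = −0.40. Most of them contribute to that mean, and the values rest on KO replicates 1 and 2.

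**Figure D2:**
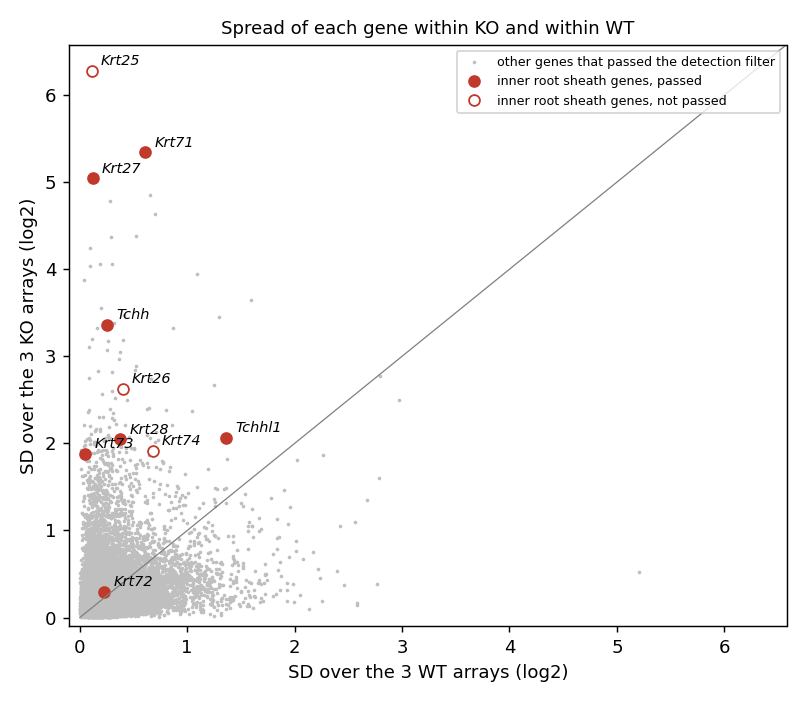
SD of scaled log2 signal over the 3 KO arrays (vertical) against the SD over the 3 WT arrays (horizontal), with the line of equality; grey points are other genes that passed the detection filter. Krt25, Krt71 and Krt27 lie highest, with KO SDs of 6.28, 5.34 and 5.05, and Krt72 lies at 0.30 among the bulk of genes.

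The high KO skins also differed from each other. KO replicate 1 exceeded KO replicate 2 in 9 of 10 members after scaling, by 1.03-fold for Krt73, 1.17-fold for Krt25, 1.41-fold for Krt71, 1.86-fold for Tchh and 1.91-fold for Krt26. The exception was Krt74, which was not well above background in either. Over all genes that passed the filter the median log2 difference between these arrays was −0.00384. Each is a single array, so the difference has no replicate check. Among WT skins, replicate 2 was the highest in 6 of 10 members.

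None of the genes with a probe next to these runs on the chromosomes had a KO SD of 2 log2, against 0.900% of all genes with a probe. Before Krt25 in chromosomal order lie Smarce1, Krt222 and Krt24, and beyond Krt28 lie Krt10, Krt12 and Krt20. Krt24 had a log2 fold change of −0.50 and a KO SD of 0.45, and Krt10, the type I keratin of the suprabasal epidermis, −0.13 and 0.01. Around Krt71 to Krt73 lie Krt6b, Krt6a and Krt5 on one side and Krt2, Krt1 and Krt77 on the other. Krt5, a keratin of the basal epidermis, had −0.22 with a KO SD of 0.04, and Krt2, a late epidermal keratin, −0.47 with 0.42. Next to Tchh, repetin (Rptn), an S100 fused-type protein, read 379.9, 199.6 and 142 units in KO, against 222, 404 and 206 units in WT. S100a11, beyond Tchhl1, had a log2 fold change of −0.29 and a KO SD of 0.10. None of the neighbours that passed the detection filter was called by limma, against 0.0219% of all genes that passed it. At such shares, neither absence sets the neighbours apart from other genes. Krt12, and Tdpoz2 on the far side of Tchhl1, were not well above background on any array and were not tested. Flg had no named probe.

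**Figure D3:**
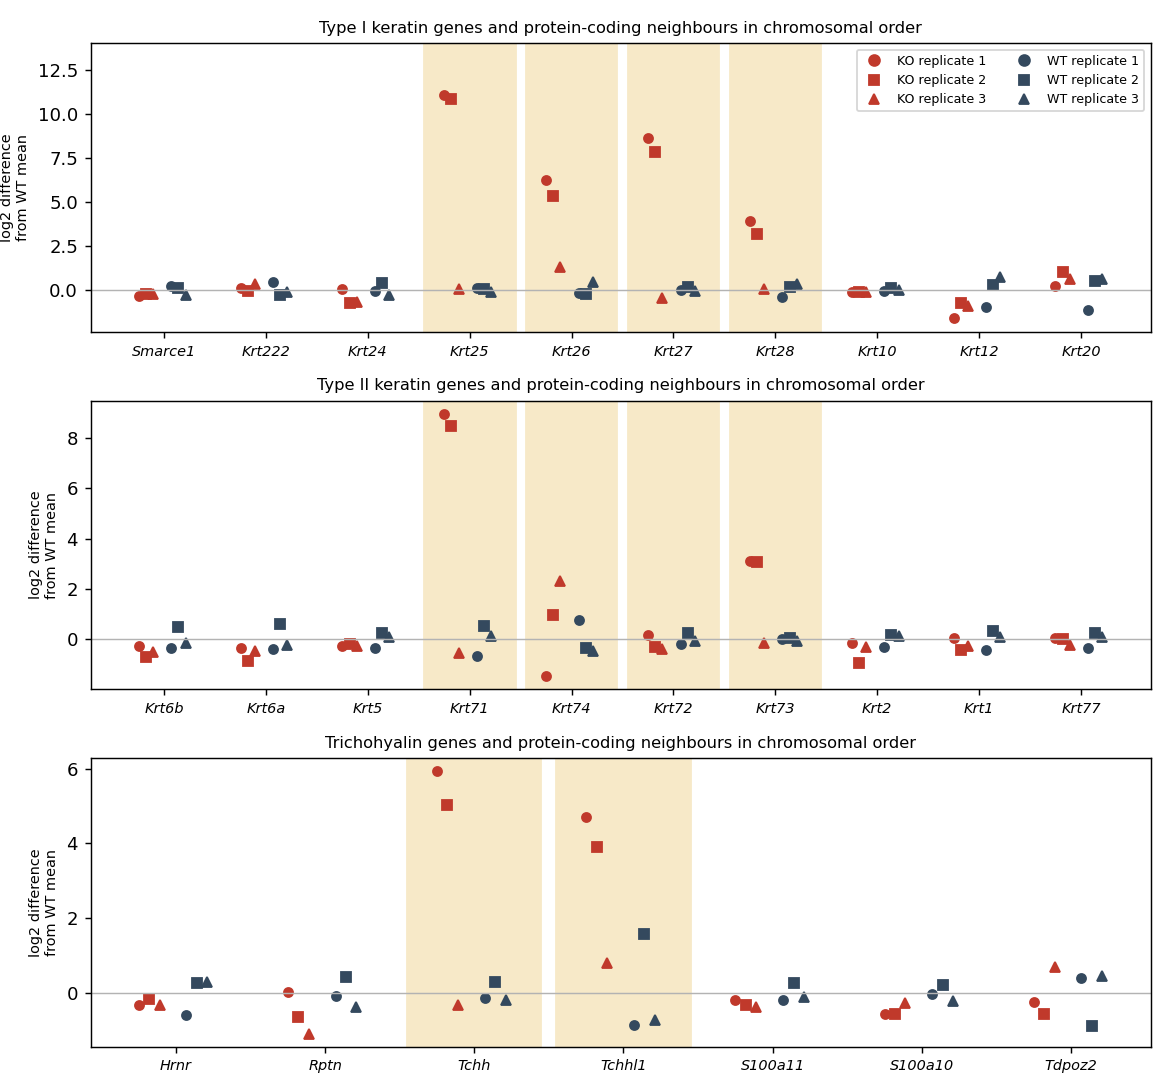
Log2 difference of each array from the WT mean for the sheath genes (shaded) and 3 protein-coding neighbours on each side, in chromosomal order; Flg had no named probe. KO replicates 1 and 2 rise above 0 in the shaded genes other than Krt72 and Krt74, up to 8.95 for Krt71 among those detected in WT (Krt25 and Krt26 were not well above background in any WT skin, so their heights are not measured differences), and stay near the WT skins in the unshaded neighbours.

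Deiminases and transglutaminases, the families of enzymes that deiminate and crosslink trichohyalin, were read from a list of 8, all detected. Which of the 8 act on trichohyalin in the sheath was not tested. None was called, against 0.0219% of all genes that passed the filter. The list's median log2 fold change was 0.53, against −0.09 over all genes that passed the filter. Padi3, a peptidylarginine deiminase of the hair follicle, read 1925, 927 and 31.6 units in KO, against 15.2, 19.0 and 27.0 units in WT (3.97, SE 1.40, limma adjusted p = 0.371). It was well above background in 1 of 3 WT skins, so it passed the filter through the KO skins alone. Its fold change rests in part on WT values that were not well above background. Padi1, another deiminase, had 0.86 (SE 0.35) and the epidermal transglutaminase Tgm5 −0.36 (SE 0.25). The widely expressed transglutaminase Tgm2 read 14370.4, 12429.9 and 11447 units in KO, against 6769, 4814 and 5143 units in WT (0.90, SE 0.22, limma adjusted p = 0.275). Padi3 thus split the KO skins as the keratins did, whereas Tgm2 was high in all 3 KO skins.

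Of 5 other S100 fused-type proteins, relatives of trichohyalin, 4 had a named probe (median −0.26). None was called, against 0.0219% of all genes that passed the filter. Cornulin (Crnn) read 969, 378 and 49.5 units in KO, against 40.2, 75.5 and 55.1 units in WT (1.95, SE 0.95, limma adjusted p = 0.474), and so was high in the same KO skins as trichohyalin. The cornified envelope proteins Flg2, Hrnr and Rptn differed by −0.26 (SE 0.13), −0.26 (SE 0.25) and −0.56 (SE 0.33) on the log2 scale.

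Between the group means, no detected regulator of the sheath and the hair matrix differed by 1 log2 or more. Among all genes with a probe, 3.12% were higher in KO by 1 log2 or more. Of 12 regulators, 11 were detected and none was called, against 0.0219% of all genes that passed the filter. At such shares, neither absence is a result about the regulators. Their median was 0.09. Gata3, a factor needed for the sheath lineage, read 21046, 16884 and 15802 units in KO, against 12938, 19772 and 17104 units in WT (−0.18, SE 0.12, limma adjusted p = 0.546). Lef1, a mediator of Wnt signals in the hair matrix, read 350.1, 243 and 97.1 units in KO, against 103, 113 and 76.0 units in WT (0.77, SE 0.42, limma adjusted p = 0.501). The homeodomain factor Msx2 had 0.32 (SE 0.16) and the forkhead factor Foxq1 −0.24 (SE 0.15). Skin by skin, KO replicates 1 and 2 exceeded every WT skin after scaling in Lef1, Msx2, Hoxc13 and Cux1. KO replicate 3 lay within the WT values in each of them. Without KO replicate 3, KO and WT did not overlap, in either direction, in 28.0% of all genes with a probe. The split in these regulators is therefore not read as a result about them. For Lef1 the scaled log2 values were −0.79 and −1.06 in KO replicates 1 and 2, against −1.88, −2.11 and −2.52 in WT. The other detected regulators did not show this split. Shh, the Sonic hedgehog ligand of the growing bulb and the 1 regulator below the filter, was well above background in KO replicate 1 alone, at 29.0 units.

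Keratins of the layers outside the sheath were read next. All 9 companion layer and outer root sheath keratins were detected. None was called, against 0.0219% of all genes that passed the filter. Their median log2 fold change was −0.41, and 1 of the 9, Krt75, was higher in KO (0.14, SE 0.50, limma adjusted p = 0.911). Krt79 had −0.51 (SE 0.14, limma adjusted p = 0.294), Krt16 −0.69 (SE 0.22), Krt17 −0.33 (SE 0.14) and the bulge keratin Krt15 −0.41 (SE 0.19). None of the 9 had a KO SD of 2 log2, against 7 of the 10 sheath genes and 0.900% of all genes with a probe. The hair shaft keratins, which lie inside the sheath, had a probe for 14 of 16 genes. Of these, 7 passed the detection filter, with a median of 2.61. None of them was called, against 0.0219% of all genes that passed the filter. Of the other 7, 6 were well above background on 2 KO arrays and on no WT array. A KO SD of 2 log2 or more was found in 4 of the 7 hair shaft keratins that passed. It was found in 5 of the 7 sheath genes that passed, so the spread was not particular to the sheath genes. Krt86 had 4.34 (SE 1.40), Krt84 1.42 (SE 0.52), Krt33a 4.43 (SE 1.68) and Krt31 2.61 (SE 1.05).

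**Figure D4:**
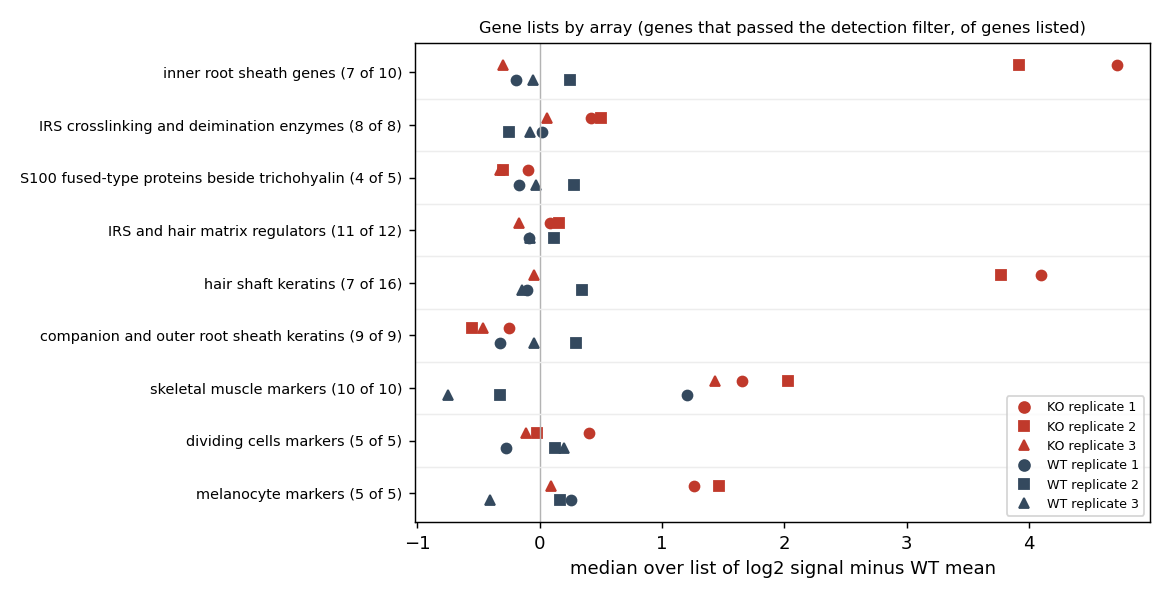
Median over each gene list of the scaled log2 signal minus the WT mean, per array, for genes that passed the detection filter (number passed of number listed). KO replicates 1 and 2 stand at 4.72 and 3.91 for the sheath genes and at 4.09 and 3.77 for the hair shaft keratins, and KO replicate 3 at −0.30 and −0.05.

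The 10 named genes whose pattern over the 6 arrays was most like the mean of the 7 detected members were Krtap11-1, Krt31, Krtap19-2, Krtap5-3, Krtap6-1, Krtap8-1, Krtap16-3, Ly6g6d, Prr9 and Otop2, with Pearson r from 0.991 to 0.999. Of 14266 named genes ranked, 11 had r over 0.99. The Krtap genes encode keratin-associated proteins of the hair shaft, and Otop2 encodes a proton channel. Krtap19-2 read 27876, 17079 and 74.8 units in KO, against 50.7, 146 and 55.4 units in WT. Otop2 read 303, 214 and 40.5 units in KO, against 20.7, 35.1 and 31.1 units in WT.

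Markers of other cells were set beside these values. Melanocyte markers, all 5 of 5 detected, had scores of 1.26, 1.46 and 0.09 in KO replicates 1, 2 and 3, against 0.26, 0.17 and −0.40 in WT replicates 1, 2 and 3, and summed signals of 10.9 to 19.2 in KO and 8.62 to 12.4 in WT in units of the 75th percentile. Dct, Tyrp1 and Pmel were high in the same KO skins as the sheath genes, while Tyr and Mlana were not. Their part in the result was not tested. Dividing-cell markers, 5 of 5 detected, had scores of 0.40, −0.02 and −0.11 in KO, against −0.28, 0.12 and 0.20 in WT, and sums of 10.1 to 14.5 in KO and 8.66 to 12.4 in WT. Skeletal muscle markers, 10 of 10 detected, had scores of 1.65, 2.03 and 1.43 in KO, against 1.21, −0.32 and −0.75 in WT, with sums of 2229 to 2845 in KO and 494 to 1981 in WT, so KO replicate 3 and WT replicate 1 were high as well.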

How the data were processed

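Messenger RNA of 6 skins was measured on 1-colour Agilent arrays. The scanner files hold spot intensity values, background-subtracted and detrended by Feature Extraction 11.5.1.1, per the file headers; arrays were not normalized to each other. Other deposited columns are flags for background, saturation and outliers, per the file headers; no spot was saturated. The authors also deposited a log2 value table, for which limma is the only tool named, in the submitters' processing notes. Its columns had medians of 6.80. With probe means removed, every column correlated at −0.624 to −0.23 with the array of its heading and at 0.998 or more with the array of the other group and the same number. Its headings also put the low Sox4 signal in WT, so the scanner files were used and the table served as an alternative.

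Replicate spots were averaged as log2 values after outlier spots were dropped, and the 75th percentile of an array's non-control probes was subtracted from it. Of 55681 probes 31 were left out. Transcript identifiers were matched without versions to RefSeq (GRCm38.p6), which named 27497 probes; the array grid refers to mm9. Probes well above background on every array of at least 1 group were kept, with the brightest per gene, giving 22835 genes and transcripts. They were fitted with limma 3.58.1 in R 4.3.3, two-sided, with Benjamini-Hochberg adjustment over all of them and a threshold of 0.05. SEs are limma's. The fit was tested on simulated data. Spread, overlap and the fold rule used every gene with a probe. The normexp alternative used the median spot signal, since the planned mean signal is not a column of these files. The members, lists and rules were chosen with earlier results of these data known. Named are all members, up to 4 of each list by smallest p, and the 10 genes most like the members. The 3 protein-coding neighbours on each side, Hoxc13 and Cux1 were added after the values were seen. The different ages within each group were read as different animals. The number of arrays limits the precision.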

Additional observations from a re-analysis of the deposited data

How the results depend on the processing

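Besides the value table, 16 alternatives were run: other scalings and background correction, other detection filters, the mean over probes, slide, age or replicate number in the model, a trended fit, and each skin left out. Members gave 157 values under them, of which 110 kept their direction and their side of the threshold, 39 kept their direction but were not tested and 7 were called without KO replicate 3. Krt74, detected on 1 array alone, moved from −0.25 (without KO replicate 3) to 1.64 with 1 skin left out, values below background from which no direction is read. Calls among the members ran from 0 to 7 with 1 skin left out, the 7 without KO replicate 3, and were 0 in each other alternative. The replicate block gave 0 calls, a median of 3.35 and adjusted p from 0.472 to 0.737; same-numbered KO and WT skins had deviations that correlated at −0.13, −0.04 and 0.08, so the numbers were not taken as pairs. The members without overlap between groups numbered 0 with normexp and quantile normalization (16.4% of all genes), 0 when detection on all 6 arrays was required (19.3%) and 0 by the value table (16.5%), and ran from 1 to 8 with 1 skin left out (20.1% to 31.0% of all genes; 28.0% at the 8). With 1 skin left out the medians ran from 2.36 (without KO replicate 1) to 4.90 (without KO replicate 3). Under its headings the value table gave each member other than Krt74 the opposite sign, Krt25 and Krt26 without a test. The values were Krt25 −4.86, Krt26 −1.78, Krt27 −4.41, Krt28 −2.25, Krt71 −5.38, Krt72 0.13, Krt73 −1.91, Tchh −3.40 and Tchhl1 −2.88. Krt74 had −0.18, also without a test, and no direction is read from it. The median over the 10 was −2.56. The genes called in all numbered 5 in the main setting, 2 without a filter, 9 when detection on all 6 arrays was required, 8 with normexp, by the value table or with a trended fit, 11 with quantile normalization, 15 with the array median, 141 with age, 1 with slide, 0 with the replicate block, and 2 to 250 with 1 skin left out. The cause of these changes was not tested.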

Other observations

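Padi2, a deiminase named here after its values were seen, read 524, 8429 and 678 units in KO replicates 1, 2 and 3, against 401, 439 and 592 units in WT replicates 1, 2 and 3. KO replicate 2 alone was high, unlike Padi3 (limma log2 fold change of Padi2 1.31, SE 1.05, adjusted p = 0.603).

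The pigment enzyme Tyrp1, chosen in the same way, read 1084, 1047 and 324 units in KO, against 224, 253 and 141 units in WT (1.54, SE 0.47, limma adjusted p = 0.32). Mlana, another melanocyte gene, read 1919, 2712 and 2732 units in KO, against 2545, 3441 and 2245 units in WT, and did not follow it.

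Krt34, a hair shaft keratin below the detection filter, read 4541, 1928 and 19.9 units in KO, against 10.1, 14.98 and 9.06 units in WT.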
